A study of Mus musculus with 12 samples.

Results

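The 10 genes described here encode the TGF-β ligands (Tgfb1, Tgfb2 and Tgfb3), their receptors (Tgfbr1, Tgfbr2 and Tgfbr3), the latent TGF-β binding proteins 1 to 3 (Ltbp1, Ltbp2 and Ltbp3) and Tgfbi, a matrix protein named for its induction by TGF-β. They were taken by symbol from a count table of each sorted population, and each of the 10, of 17952 genes listed in all, was listed for every one of the 12 libraries. Bulk RNA was taken from cells of the infarcted region of mouse hearts, sorted 7 days after myocardial infarction. All mice carried p16-2A-CreER, in which the p16 locus drives a Cre that needs tamoxifen to act, with the R26-mTmG reporter, by which a cell and its progeny turn green after Cre recombination. All were infarcted and given tamoxifen by mouth on day 5. Cardiomyocytes were removed, and cells with high signal for PDGFRα, a receptor of fibroblasts, or for F480, a macrophage surface protein that Adgre1 encodes, were sorted into those with high (P16hi) and low (P16lo) green fluorescence. Green cells are thus those in which the locus was active around the tamoxifen dose, not those with p16 at harvest. Each of the 4 groups (PDGFRα P16lo, PDGFRα P16hi, F480 P16lo and F480 P16hi) had 3 libraries, numbered as labelled. The age and sex of the mice and whether libraries came from separate animals are not stated, so each p-value rests on the spread among these samples alone, and that spread may be technical.

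TGF-β is secreted as a latent complex, in which the mature dimer is held by its own propeptide. A latent TGF-β binding protein can tether that complex to matrix, from which integrins, thrombospondin-1 or proteases release the ligand. The free ligand binds the kinase receptor Tgfbr2, which recruits and activates Tgfbr1, and Smad2 and Smad3 then carry the signal to the nucleus. Tgfbr3 (betaglycan) is a co-receptor without a kinase that presents the ligands, above all TGF-β2. In the healing infarct, macrophages and fibroblasts both make TGF-β, and the pathway is known for turning fibroblasts into matrix-producing myofibroblasts.

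The stretches before the starts of Tgfb1, Tgfb2 and Tgfbi are shown because Tgfb1 and Tgfb2 lay in opposite directions between the sorted populations and Tgfbi had the smallest p between P16hi and P16lo cells. Each is the 250 bases before the RefSeq start on GRCm38.p6, 5′ to 3′ on the gene's strand, with matches on either strand to the GC box (GGGCGG), the Smad element (CAGAC), the PU.1 core (GAGGAA) and the TATA box (TATAAA) in capitals. No matches of different motifs overlapped in these 3 stretches.
Tgfb1 (chr7:25686752-25687001, plus strand): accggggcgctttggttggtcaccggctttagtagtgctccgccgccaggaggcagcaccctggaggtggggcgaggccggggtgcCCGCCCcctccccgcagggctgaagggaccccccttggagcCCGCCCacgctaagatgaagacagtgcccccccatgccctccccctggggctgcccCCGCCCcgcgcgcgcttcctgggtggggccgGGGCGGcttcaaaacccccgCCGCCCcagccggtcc
Tgfb2 (chr1:186705990-186706239, minus strand): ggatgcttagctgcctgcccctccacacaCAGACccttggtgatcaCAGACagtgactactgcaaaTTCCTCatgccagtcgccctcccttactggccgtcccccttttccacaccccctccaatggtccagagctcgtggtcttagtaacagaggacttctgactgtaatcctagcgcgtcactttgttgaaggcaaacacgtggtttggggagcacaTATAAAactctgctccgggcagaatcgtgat
Tgfbi (chr13:56609336-56609585, plus strand): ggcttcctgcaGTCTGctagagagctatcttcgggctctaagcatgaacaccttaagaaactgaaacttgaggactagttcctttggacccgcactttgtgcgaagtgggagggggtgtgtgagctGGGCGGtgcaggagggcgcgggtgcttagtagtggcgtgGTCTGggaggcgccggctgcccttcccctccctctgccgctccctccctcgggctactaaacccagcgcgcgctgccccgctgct
The Tgfb1 stretch was 75.2% G or C and held 5 GC boxes and 0 of the other motifs. At Tgfb2, 53.6% G or C, there were 2 Smad elements, 1 PU.1 core and 1 TATA box, and 0 GC boxes. Tgfbi, at 62.4% G or C, had 1 GC box and 2 Smad elements. Over all 32851 promoters of the table, 32.7% held a GC box, 42.2% a Smad element, 23.3% a PU.1 core and 12.4% a TATA box in the same window. A promoter was given for 8 of the 10 genes, with a pair of starts each for Tgfbr1 and Ltbp1. A GC box was found in 4 of these 10 stretches, a Smad element in 8, a PU.1 core in 4 and a TATA box in 1. These matches describe letters and no binding was measured. The start given for Tgfb2 lies inside the annotated span of the gene (chr1:186622787-186709697).

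Totals ran from 3163600 to 27886800 estimated counts per library (to the nearest 100). Cdkn2a, the gene of the p16 locus, had 2, 2 and 3 counts in the PDGFRα P16lo and 6, 5 and 8 in the PDGFRα P16hi libraries, and 4, 5 and 3 against 13, 26 and 14 counts in F480-high cells, so no group overlapped its counterpart. The sort labels matched the RNA less well. Among the libraries labelled PDGFRα-high, the summed level of 10 fibroblast markers exceeded that of 12 macrophage markers in P16lo library 3 and P16hi library 3 but not in the other 4. Hemoglobin and other erythroid genes summed to 638980 CPM (counts per 1000000 after TMM scaling, so that a sum can exceed the true share) in PDGFRα P16lo library 3 and to 2252 to 191380 CPM in the other PDGFRα libraries. Cardiomyocyte markers summed to 2528 to 8839 CPM in the PDGFRα P16hi and 266 to 360 CPM in the PDGFRα P16lo libraries. In F480 P16lo library 3, Adgre1 was at 35.6 CPM against 240 to 1873 CPM in the other F480 libraries, and B cell markers summed to 6739 CPM against 24.2 to 1546. F480 P16hi library 3 had 4389 CPM of endothelial markers against 37.2 to 156 in the other F480 libraries. It also had 921 CPM of cardiomyocyte markers against 3.49 to 32.2, and 254 CPM of pericyte and smooth muscle markers against 3.74 to 20.3.

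Between P16hi and P16lo cells, none of the 10 genes passed edgeR's quasi-likelihood test in either population (Benjamini-Hochberg adjusted p under 0.05 over all genes tested). Among PDGFRα-high cells 0 of 10 were called, against 0% of 13262 genes tested, and at an unadjusted p under 0.05 1 of the 10 (Tgfbi) was lower, against 1.67% of all genes, and 0 were higher, against 4.8%. In F480-high cells 0 of 10 were called against 0% of 12490 genes, and 0 of 10 had an unadjusted p under 0.05, against 2.24% of all genes (1.94% higher and 0.304% lower). DESeq2 and limma also called 0 of the 10 in both. For none of the 10 did all P16hi libraries lie on one side of all P16lo libraries, which 14.8% of all genes did in PDGFRα-high cells (7.82% higher and 6.97% lower) and 6.89% in F480-high cells (2.95% higher and 3.94% lower). Whether the P16 difference itself differed between the populations was tested in all 12 libraries, with 0 of 10 called against 0% of 14073 genes and an adjusted p of 1 for each member by edgeR. At an unadjusted p under 0.05 that test gave 0 of the 10, against 2.12% of all genes (0.803% above and 1.32% under 0). The value was under 0 for 8 of the 10, against 59.4% of all genes, and ranged from -2.59 (SE 1.86) for Tgfbr3 to 0.084 (SE 1.28) for Tgfb3. With TPM remade from FPKM it was under 0 for 4 of the 10. On that scale the median of all genes was 0.363, and 6 of the 10 lay below it. Without PDGFRα P16lo library 3 the Tgfbr3 value was -0.001.

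**Figure D1:**
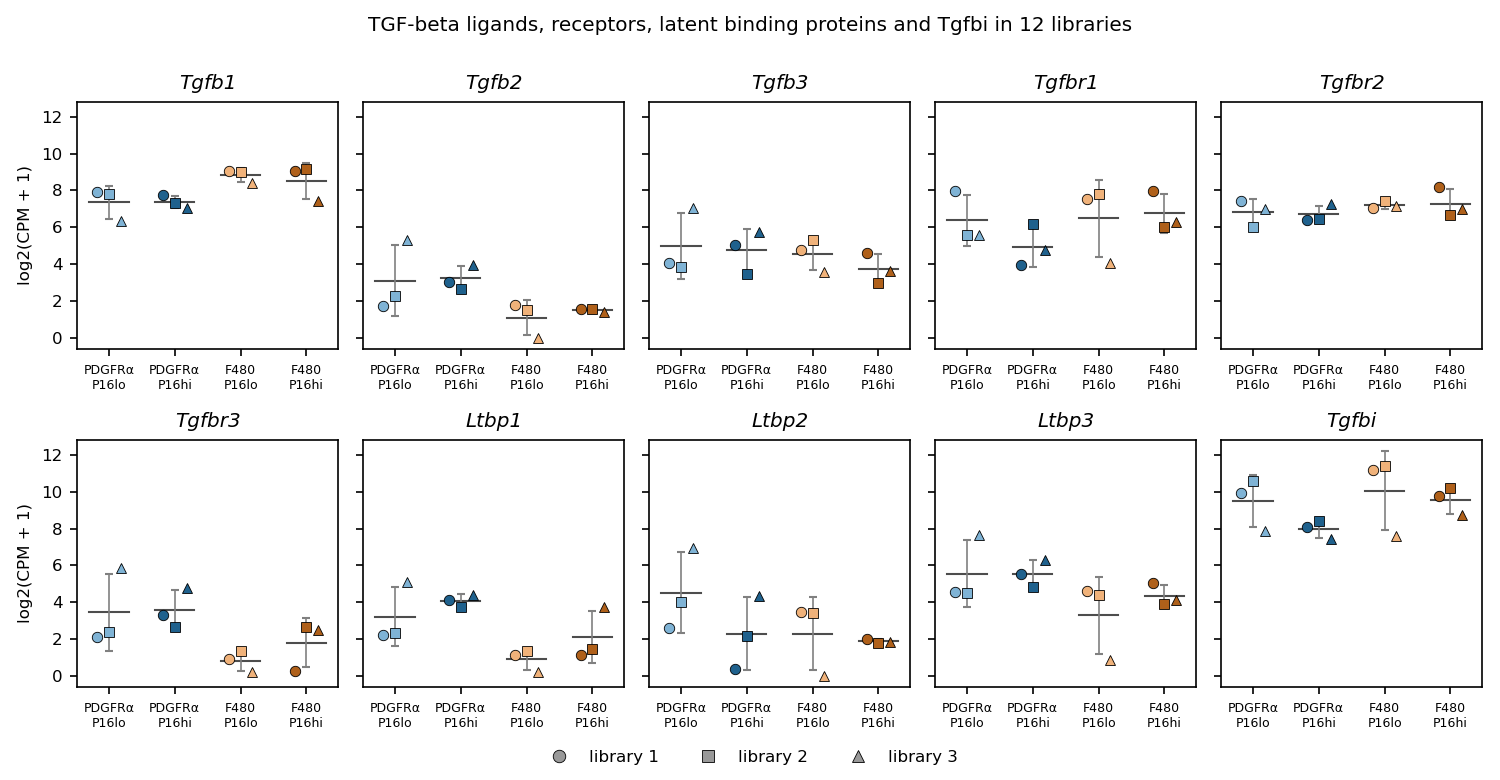
Level of each of the 10 genes in each library, as log2(CPM + 1), by sorted population and P16 group. Marker shape gives the library number, the horizontal line is the mean of 3 libraries and the bar is ± 1 SD. The P16hi and P16lo libraries overlap for every gene in both populations, and library 3 of PDGFRα P16lo is the highest PDGFRα library for 6 of the 10 genes.

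**Figure D2:**
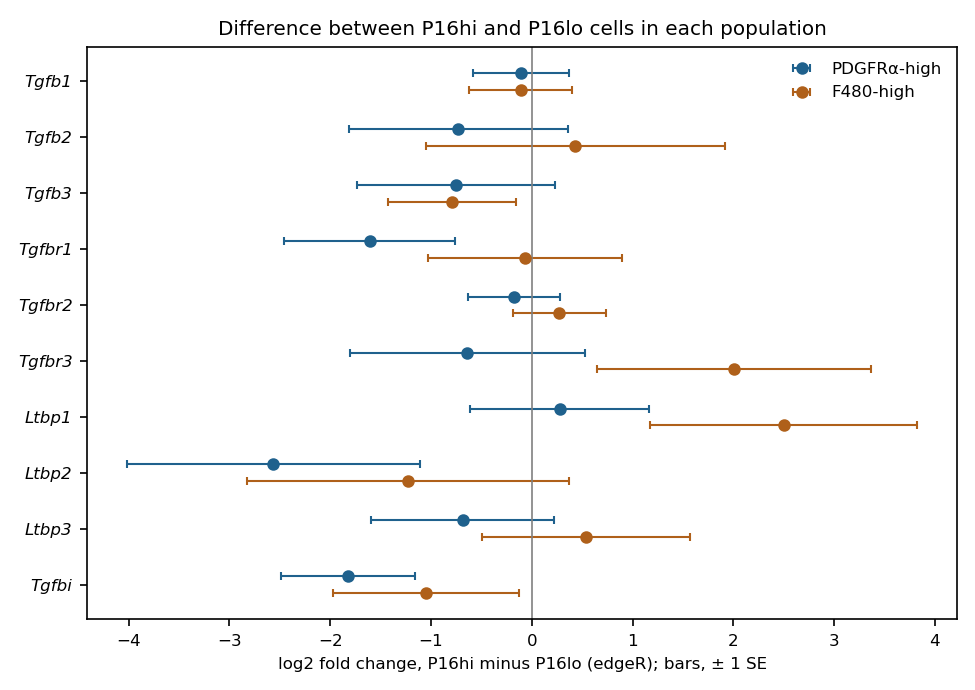
Log2 fold change of P16hi over P16lo cells for the 10 genes in each sorted population, from edgeR, with bars of ± 1 SE (3 against 3 libraries). In PDGFRα-high cells 9 of 10 values lie below 0 and in F480-high cells 5 of 10, and no adjusted p was under 0.05.

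Tgfb1 was the main TGF-β ligand in both populations and lay higher in F480-high than in PDGFRα-high cells. Per transcript length it made up 95.5% to 99.1% of the summed TPM of the 3 ligands in each F480 library. In PDGFRα-high cells its share was 77.5% to 95.8% in 5 libraries and 45.2% in P16lo library 3, where Tgfb3 had 46.1% and Tgfb2 8.69%. Tgfb1 was thus the ligand with the highest TPM in 11 of 12 libraries. Its TPM had a median of 271 over the F480 libraries (range 111 to 347) and 95.9 over the PDGFRα libraries (17.7 to 140).

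Tgfb1 counts gave 536, 520 and 338 CPM in F480 P16lo libraries 1 to 3 and 531, 565 and 168 CPM in F480 P16hi libraries 1 to 3. In PDGFRα-high cells they gave 239, 226 and 79.7 CPM in P16lo libraries against 212, 161 and 131 CPM in the P16hi libraries. The 5 F480 libraries other than P16hi library 3 lay above every PDGFRα library, and P16hi library 3 fell among them. Over 12 libraries the log2 fold change of PDGFRα-high over F480-high cells was -1.34 (SE 0.37), and the edgeR adjusted p was 0.0538, just over the threshold. Without F480 P16hi library 3 it was -1.68 with an edgeR adjusted p of 0.00871. DESeq2 on all 12 libraries, which called 3218 genes against 892 by edgeR, gave an adjusted p of 0.00384. Over all alternatives the adjusted p ran from 0.00384 to 0.129 and the direction held in each. Between P16hi and P16lo cells, Tgfb1 had means of 168 ± 41.3 and 182 ± 88.5 CPM (SD, n = 3 each) in PDGFRα-high and 421 ± 220 and 465 ± 110 CPM in F480-high cells. The log2 fold changes were -0.11 (SE 0.47) and -0.11 (SE 0.51), both within their SE.

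Tgfb2 and Tgfb3, the ligands that fibroblasts and other mesenchymal cells are known to make, had population values of the other sign. Tgfb2 had 2.33, 3.76 and 39.3 CPM in PDGFRα P16lo libraries against 7.29, 5.32 and 14.4 CPM in the PDGFRα P16hi libraries. F480-high cells held 2.42, 1.83 and 0 CPM in P16lo libraries against 1.95, 1.95 and 1.65 CPM in P16hi libraries, where the 0 stands for 0 counts and allows up to 0.122 CPM (3 counts). All PDGFRα libraries but P16lo library 1 lay above every F480 library, on 25 to 375 counts per PDGFRα library. The population log2 fold change of Tgfb2 was 2.85 (SE 1.0, edgeR adjusted p = 0.0946), and DESeq2 gave an adjusted p of 0.0105. Between P16hi and P16lo cells it was -0.73 (SE 1.09) in PDGFRα-high and 0.43 (SE 1.48) in F480-high cells. Without PDGFRα P16lo library 3 the PDGFRα value was 1.57 (edgeR adjusted p = 0.632), so its direction rested on that library.

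Tgfb3 had 15.6, 13.4 and 131 CPM in PDGFRα P16lo libraries against 31.8, 10.2 and 52.2 CPM in the PDGFRα P16hi libraries. F480-high cells held 26.3, 38.3 and 10.9 CPM in P16lo libraries against 23.6, 6.92 and 11.6 CPM in P16hi libraries. The populations overlapped widely, with PDGFRα P16lo library 3 and P16hi library 3 above all others. Tgfb3 had a population log2 fold change of 1.12 (SE 0.65, edgeR adjusted p = 0.278), which was 0.124 without PDGFRα P16lo library 3. P16hi over P16lo was -0.75 (SE 0.98) in PDGFRα-high and -0.79 (SE 0.64) in F480-high cells, and 1.12 in PDGFRα-high cells without P16lo library 3 (edgeR adjusted p = 0.651).

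**Figure D3:**
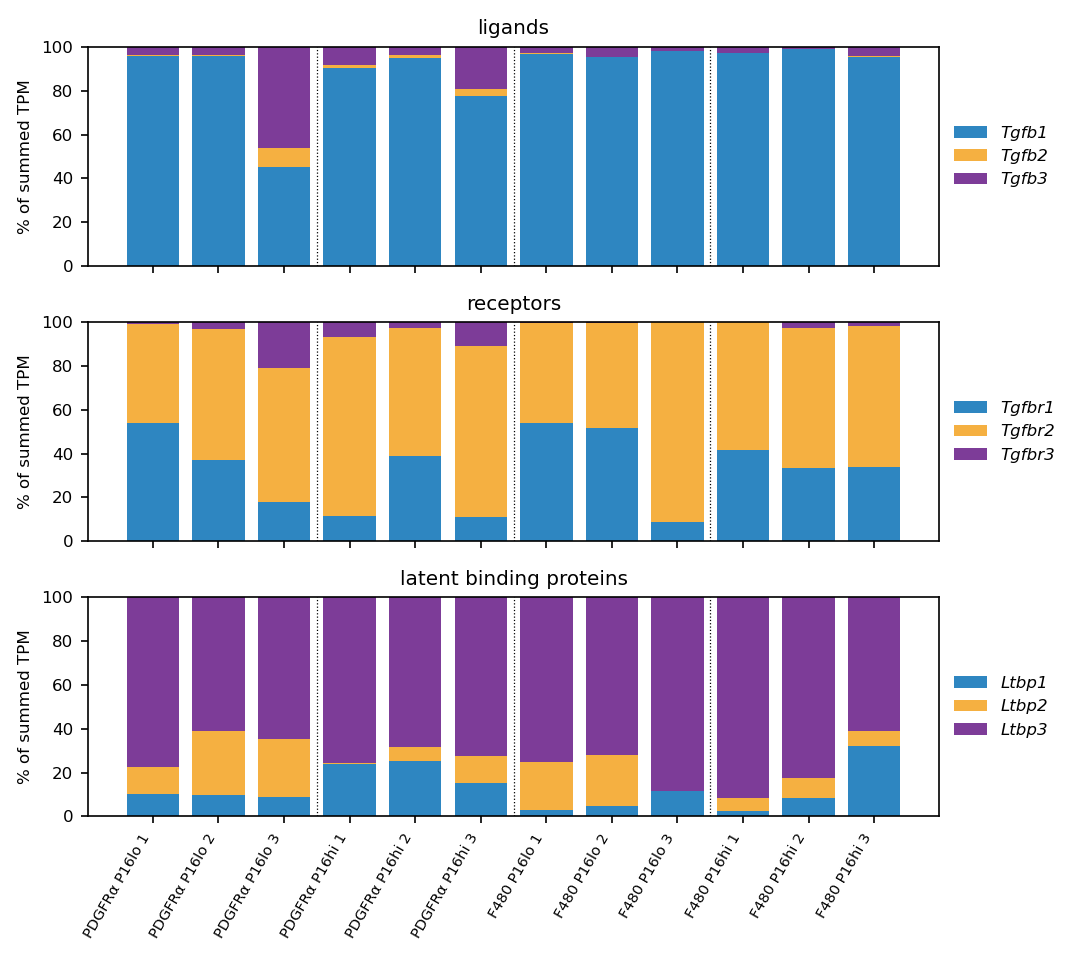
Share of each gene in the summed TPM of its family (ligands, receptors, latent binding proteins), in percent, for each of the 12 libraries; TPM were remade from the deposited FPKM and dotted lines part the groups. Tgfb1 has the largest ligand share in every library except PDGFRα P16lo 3, and Ltbp3 has the largest share of the latent binding proteins in all 12.

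Among the latent TGF-β binding proteins, Ltbp3 had the highest TPM in 12 of 12 libraries, with 61.0% to 91.7% of the sum over the 3 genes. Ltbp3 and Ltbp1 bind latent TGF-β, whereas LTBP2 is known mainly as a fibrillin-associated matrix protein that does not hold latent TGF-β. Ltbp3 counts gave 22.1, 21.5 and 198 CPM in PDGFRα P16lo libraries against 45.5, 27.6 and 76.2 CPM in the PDGFRα P16hi libraries. F480 P16lo libraries had 23.4, 20.1 and 0.812 CPM and F480 P16hi libraries 31.7, 14.1 and 16.2 CPM. F480 P16lo library 3, on 20 counts, lay far below the other F480 libraries, and PDGFRα P16lo library 3 far above all others. The population log2 fold change was 1.86 (SE 0.77, edgeR adjusted p = 0.139). Between P16hi and P16lo it was -0.69 (SE 0.91) in PDGFRα-high and 0.53 (SE 1.03) in F480-high cells, and 1.19 and -0.024 without library 3 of the respective P16lo group (edgeR adjusted p = 0.479 without the PDGFRα library).

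Ltbp1 was low in most F480 libraries. It had 1.17, 1.59 and 0.162 CPM in F480 P16lo libraries against 1.15, 1.78 and 12.5 CPM in F480 P16hi libraries, on 4 to 43 counts in all but P16hi library 3, which had 227. PDGFRα-high cells held 3.71, 4.08 and 32.9 CPM in P16lo libraries against 16.6, 12.3 and 20.05 CPM in P16hi libraries. The 5 F480 libraries other than P16hi library 3, the one with endothelial, cardiomyocyte and pericyte markers, lay below every PDGFRα library. The population log2 fold change was 2.73 (SE 0.84, edgeR adjusted p = 0.0691), and 3.47 (edgeR adjusted p = 0.0197) without F480 P16hi library 3. Ltbp1 had the largest P16hi over P16lo value of the 10 in F480-high cells, 2.5 (SE 1.33, edgeR adjusted p = 0.999), and 0.60 without P16hi library 3. In PDGFRα-high cells it was 0.28 (SE 0.88), and 2.06 without P16lo library 3 (edgeR adjusted p = 0.329). PDGFRα P16hi cells lay above PDGFRα P16lo libraries 1 and 2 in every library, and below P16lo library 3.

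Ltbp2 varied more between PDGFRα libraries than any other of the 10 genes. It had 5.15, 14.9 and 121 CPM in P16lo libraries against 0.292, 3.55 and 19.2 CPM in the P16hi libraries, on 1 count in P16hi library 1. F480-high cells had 10.1, 9.57 and 0 CPM in P16lo libraries against 3.06, 2.40 and 2.64 CPM in P16hi libraries, the 0 again allowing up to 0.122 CPM. P16hi libraries 1 and 2 of PDGFRα-high cells lay below all 3 P16lo libraries, and P16hi library 3 lay among them. The log2 fold change of P16hi over P16lo was -2.56 (SE 1.46, edgeR adjusted p = 0.856) for PDGFRα-high cells, the lowest of the 10, and -0.36 without P16lo library 3. It was -1.22 (SE 1.60) in F480-high cells, and the population value was 2.19 (SE 1.16, edgeR adjusted p = 0.235).

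Of the receptors, Tgfbr2 had the highest TPM in 9 of 12 libraries and Tgfbr1 in the other 3, while Tgfbr3 made up at most 21.0% of the receptor sum. Tgfbr2 was the most even of the 10 genes over the libraries. It had 172, 62.8 and 128 CPM in PDGFRα P16lo, 82.9, 87.0 and 150 CPM in PDGFRα P16hi, 131, 170 and 140 CPM in F480 P16lo, and 290, 101 and 124 CPM in F480 P16hi libraries. All 4 groups overlapped. Its log2 fold changes were -0.18 (SE 0.45) and 0.28 (SE 0.46) for P16hi over P16lo in PDGFRα-high and F480-high cells, and -0.48 (SE 0.34, edgeR adjusted p = 0.376) between the populations.

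Tgfbr1 ranged more widely, with 247, 47.6 and 46.2 CPM in PDGFRα P16lo libraries against 14.3, 71.0 and 25.9 CPM in PDGFRα P16hi libraries. F480-high cells held 187, 224 and 15.96 CPM in P16lo libraries against 252, 64.0 and 78.5 CPM in P16hi libraries. PDGFRα P16lo library 1, the PDGFRα library with the highest macrophage sum (27254 CPM), stood with the upper F480 libraries. F480 P16lo library 3, with low Adgre1, stood with the lower PDGFRα libraries. However, PDGFRα P16hi library 1, with a macrophage sum of 16222 CPM, had the lowest Tgfbr1 level of all 12 libraries. The part of cell makeup in these levels was not tested. P16hi over P16lo was -1.61 (SE 0.85, edgeR adjusted p = 0.828) in PDGFRα-high and -0.068 (SE 0.96) in F480-high cells. The PDGFRα value was -0.335 without P16lo library 1 and -2.46 without P16hi library 2. The population value was -1.08 (SE 0.70, edgeR adjusted p = 0.342).

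Tgfbr3 showed the largest population value of the 10 genes. It had 3.32, 4.15 and 57.4 CPM in PDGFRα P16lo libraries against 9.05, 5.32 and 26.8 CPM in the PDGFRα P16hi libraries. F480-high cells held 0.852, 1.59 and 0.162 CPM in P16lo libraries against 0.222, 5.18 and 4.68 CPM in P16hi libraries, on 4 to 125 counts. F480 P16hi libraries 2 and 3 reached the lower PDGFRα libraries, and the other 4 F480 libraries lay below all of them. The population log2 fold change was 3.33 (SE 1.0), and the adjusted p was 0.0642 by edgeR and 0.00189 by DESeq2. Between P16hi and P16lo cells it was -0.64 (SE 1.17) in PDGFRα-high cells, 1.88 without P16lo library 3 (edgeR adjusted p = 0.545), and 2.01 (SE 1.36, edgeR adjusted p = 0.999) in F480-high cells.

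Tgfbi, which encodes an adhesive matrix protein and is known to be made in quantity by macrophages, had the highest TPM of the 10 in each PDGFRα library, with a median of 134 there and 464 over the F480 libraries. PDGFRα-high cells held 990, 1548 and 236 CPM in P16lo libraries against 274, 336 and 172 CPM in the P16hi libraries, with means of 925 ± 658 and 260 ± 83.0 CPM (SD, n = 3 each). P16lo libraries 1 and 2 lay above all P16hi libraries, and P16lo library 3 lay among them. The log2 fold change was -1.82 (SE 0.67), the unadjusted p 0.0282 and the edgeR adjusted p 0.678, so it was not called. Leaving out 1 library at a time gave -2.29 to -1.23, and the adjusted p over all alternatives ran from 0.177 to 0.979.

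In F480-high cells Tgfbi had 2355, 2702 and 190 CPM in P16lo libraries against 860, 1197 and 423 CPM in P16hi libraries. P16lo libraries 1 and 2 were again above all P16hi libraries, and P16lo library 3 below them. The log2 fold change was -1.05 (SE 0.92, edgeR adjusted p = 0.999). The F480 table lists its libraries in a pair of column blocks whose meaning is not given, P16lo library 3 with P16hi libraries 2 and 3, and P16lo libraries 1 and 2 with P16hi library 1. Within the first block the difference of mean log2(CPM + 1) was 1.90 (1 P16lo against 2 P16hi libraries), and within the other -1.55 (2 against 1), so the direction did not hold in both. In the same order, Ltbp2 gave 1.82 and -1.42, Tgfbr3 2.35 and -0.84, Ltbp1 2.40 and -0.14 and Tgfb2 1.48 and -0.077. Tgfbr2 gave -0.32 and 0.95 and Tgfb1 -0.13 and 0.0089, so all of these changed sign too. Tgfbr1 (2.08 and 0.30), Ltbp3 (3.15 and 0.53) and Tgfb3 (-0.26 and -0.41) kept theirs. Between populations Tgfbi had a log2 fold change of -1.29 (SE 0.61, edgeR adjusted p = 0.187), and -1.88 (edgeR adjusted p = 0.0194) without library 3 of both F480 groups.

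As a group in PDGFRα-high cells, 9 of the 10 genes had a log2 fold change below 0 for P16hi over P16lo, against 59.6% of all genes, and the median was -0.71 against -0.17 for all genes tested. The direction depended on 1 library and on the scaling. Without P16lo library 3, which held the highest level of 6 of the 10 (Tgfb2, Tgfb3, Tgfbr3, Ltbp1, Ltbp2 and Ltbp3), 5 of 10 were below 0 and the median was 0.49. On TPM, which carry no TMM factor and in which the median of all genes was 0.45, 3 of 10 were below 0 and 4 of 10 below the median of all genes, with a median of 0.52. On that scale P16hi library 3, not P16lo library 3, held the highest value of 6 genes (Tgfb2, Tgfb3, Tgfbr2, Tgfbr3, Ltbp1 and Ltbp3). With library totals in place of TMM the median of all genes was 0.24, and 5 of 10 were below 0 and 9 of 10 below the median of all genes. In F480-high cells 5 of 10 were above and 5 below 0 (50% of all genes were below 0), with a median of 0.10 against -0.00013 for all genes. With the column block as a term 1 of 10 was below 0 and the median was 1.26, against 0.034 for all genes, and with 1 library left out 3 to 7 of 10 were below 0, with medians of -0.321 to 0.396.

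In PDGFRα-high libraries the CPM of several members followed the summed CPM of the fibroblast markers. In falling order of the fibroblast sum the libraries were P16lo 3 (19639 CPM), P16hi 3 (6736), P16hi 1 (4231), P16lo 2 (2476), P16hi 2 (1768) and P16lo 1 (681). Tgfb2, Tgfbr3 and Ltbp1 took this same order except that P16hi 2 lay above P16lo 2. Ltbp3 and Tgfb3 were also highest in P16lo 3, then P16hi 3, then P16hi 1. In CPM, Tgfb1 was lowest in P16lo 3 and next lowest in P16hi 3, the libraries with the lowest macrophage sums (1738 and 5601 CPM against 6198 to 27254 in the other 4). In TPM it was also lowest in P16lo 3 (17.7), but P16lo 2 (87.6) and P16hi 2 (94.1) lay below P16hi 3 (97.7). Pdgfra, the gene of the sorted protein, had 4.46, 6.48 and 158 CPM in P16lo libraries against 19.3, 8.23 and 44.4 CPM in P16hi libraries, and was among the 3 genes most like Tgfbr3. In F480-high libraries the orders held in part. Spearman's rank correlation with the fibroblast sum was 0.83 for Tgfb2 and 0.77 for Tgfb3 and Ltbp3, but 0.086 for Tgfbr3 and 0.029 for Ltbp1. With the macrophage sum it was 0.89 for Tgfb2, 0.60 for Tgfb3 and 0.94 for Ltbp3, and -0.086 for Tgfbr3 and -0.14 for Ltbp1. These orders are descriptions in CPM over 6 libraries per population, which also differ in depth. Members and marker sums share the TMM factor of each library, and the marker sums were taken in CPM only. In TPM, Tgfb2, Tgfb3, Tgfbr3, Ltbp1 and Ltbp3 were highest in PDGFRα P16hi 3, not P16lo 3, among the PDGFRα libraries. The part that cell makeup had in the P16 values was not tested, and in bulk RNA fewer cells of a type and less RNA per cell cannot be told apart.

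**Figure D4:**
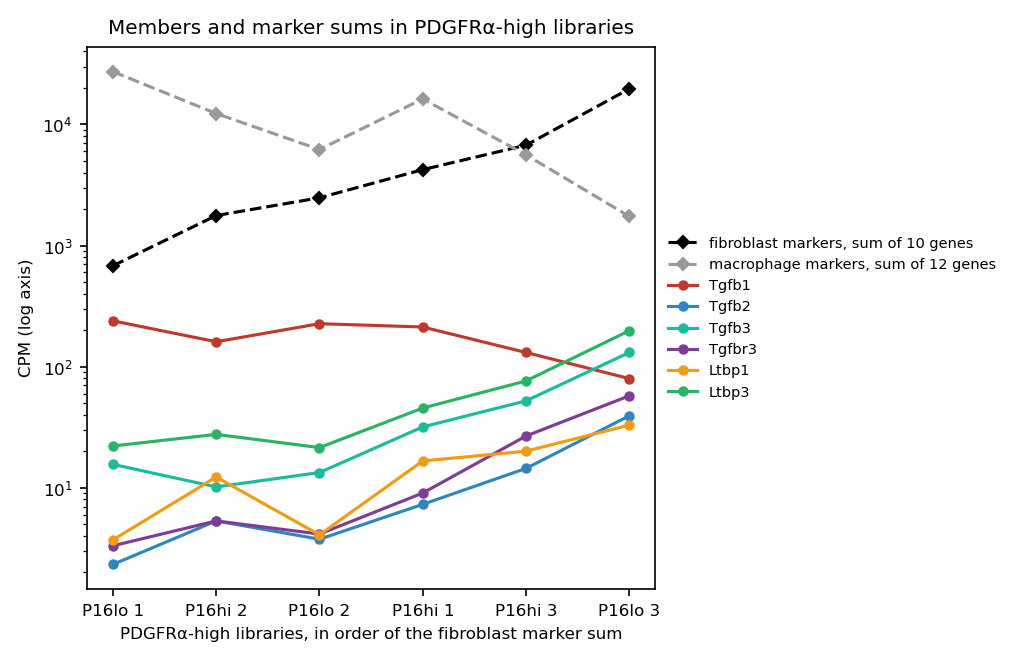
CPM on a log axis of 6 members and of the summed fibroblast (10 genes) and macrophage (12 genes) markers in the 6 PDGFRα-high libraries, placed in rising order of the fibroblast sum. In CPM, Tgfb2, Tgfb3, Tgfbr3, Ltbp1 and Ltbp3 are highest in P16lo 3, where the fibroblast sum is 19639 CPM. In TPM, which are not drawn, they are highest in P16hi 3. Tgfb1 is lowest in P16lo 3 on both scales.

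Between the sorted populations 0 of 10 genes were called, against 6.34% of 14073 genes tested by edgeR (520 higher in PDGFRα-high cells and 372 lower). At an unadjusted p under 0.05, Tgfb2, Tgfbr3, Ltbp1 and Ltbp3 were higher in PDGFRα-high cells, 4 of 10 against 17.3% of all genes, and Tgfb1 was lower, 1 of 10 against 11.6%, so 5 of 10 in either direction against 28.8%. DESeq2 called 4 of the 10 (Tgfb1 lower, Tgfb2, Tgfbr3 and Ltbp1 higher). It called 3218 of the same 14073 genes in all, against 892 by edgeR, so its calls are far less selective. For 0 of the 10 did the populations not overlap, against 4.12% of all genes (2.3% higher and 1.82% lower). The sign of all 10 population values held under every alternative, with Tgfb1, Tgfbr1, Tgfbr2 and Tgfbi below 0 (46.7% of all genes were) and the other 6 above. The median over the 10 was 1.49 against 0.07 for all genes. It was 0.488 without PDGFRα P16lo library 3, 0.853 without PDGFRα P16hi library 3 and 0.586 by limma on TPM remade from FPKM. The call counts depend on single libraries and on scaling. Without F480 P16lo library 1 or 2 edgeR called 0 genes and without F480 P16hi library 3 it called 2786, and the split was 610 higher and 295 lower by upper quartile scaling and 557 and 176 by library totals. Each population has a table of its own, so population and table cannot be told apart.

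**Figure D5:**
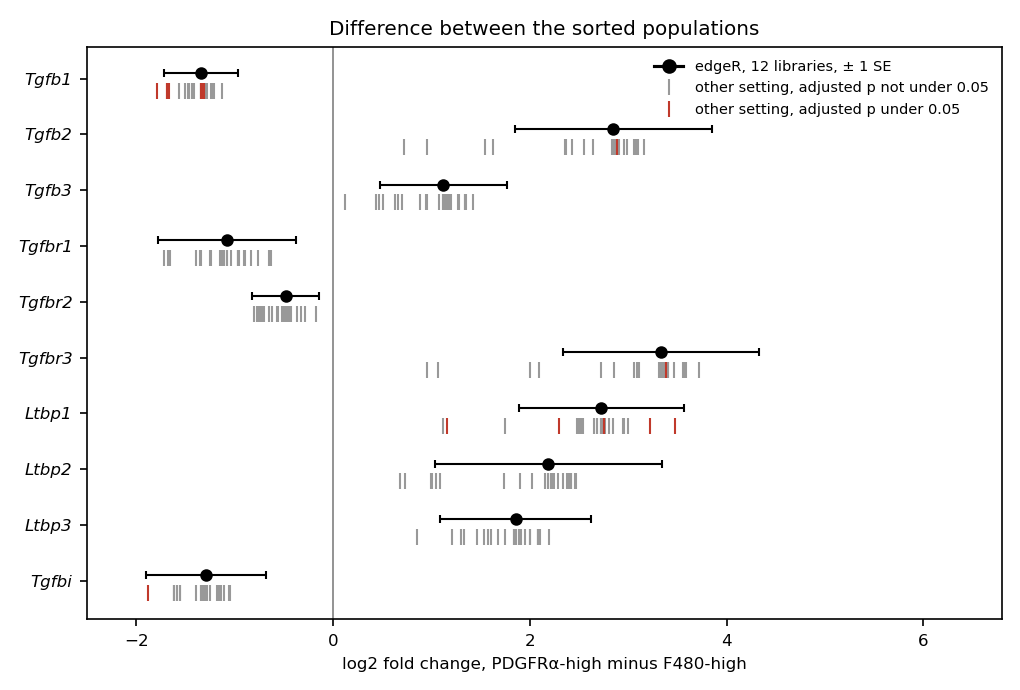
Log2 fold change of PDGFRα-high over F480-high cells for the 10 genes over 12 libraries, from edgeR with bars of ± 1 SE (black). Ticks below give the values under each other setting, in red where the adjusted p was under 0.05 and grey otherwise. Tgfb1, Tgfbr1, Tgfbr2 and Tgfbi lie below 0 and the other 6 genes above it in every setting.

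The order of levels per length was alike in both populations. By median TPM over the PDGFRα libraries it ran Tgfbi 134, Tgfb1 95.9, Tgfbr2 20.7, Ltbp3 8.91, Tgfb3 8.06, Tgfbr1 6.78, Ltbp1 2.70, Tgfb2 1.41, Ltbp2 1.35 and Tgfbr3 1.33. In F480-high cells the order was Tgfbi 464, Tgfb1 271, Tgfbr2 35.7, Tgfbr1 26.0, Tgfb3 6.19, Ltbp3 4.99, Ltbp2 0.51, Tgfb2 0.43, Ltbp1 0.28 and Tgfbr3 0.22. In PDGFRα-high cells the ranges over libraries of all neighbours in this order overlapped, with Tgfb1 from 17.7 to 140 and Tgfbr2 from 10.6 to 48.7 TPM. Across F480 libraries Tgfb1 (111 to 347 TPM) lay wholly above Tgfbr2 (26.9 to 65.3 TPM), and the ranges of the other neighbours overlapped.

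The other genes of the pathway were read from 6 lists. Between P16hi and P16lo cells and in the difference of differences, edgeR called 0 members of each list. Among 13 tested genes listed for the activation of latent TGF-β, the PDGFRα median was -0.93 against -0.17 for all genes. Monocyte markers (7 of 7 below 0, median -2.64) and neutrophil markers (5 of 5 tested, -3.39) lay the same way, against 59.6% of all genes below 0. So did T and NK cell (10 of 10, -2.06), B cell (5 of 5, -1.65), erythroid (6 of 6, -3.90) and fibroblast markers (10 of 10, -0.97). Endothelial (11 of 11), cardiomyocyte (11 of 11) and mesothelial markers (4 of 4) lay above 0, and the other marker lists were mixed. Monocyte markers summed to 349 to 4536 CPM in the P16lo and 91.3 to 382 CPM in the P16hi libraries, and neutrophil markers to 99.4 to 1983 and 47.9 to 154.5 CPM, both highest in P16lo library 2. The part of any of these cell types in this list and in the Tgfbi value was not tested. Thbs1, which encodes thrombospondin-1, had 176, 303 and 123.4 CPM in PDGFRα P16lo libraries against 25.7, 21.1 and 56.6 CPM in the PDGFRα P16hi libraries, without overlap, and a log2 fold change of -2.53 (SE 0.54, edgeR adjusted p = 0.311). Itgav, the αv integrin chain of the receptors that pull TGF-β from its complex, had 47.9, 23.7 and 40.9 CPM against 8.75, 14.8 and 16.9 CPM, also without overlap (log2 fold change -1.46, SE 0.43, edgeR adjusted p = 0.533). All P16hi libraries lay below all P16lo libraries for 3 of the 13 (these and Plau, log2 fold change -1.13), against 6.97% of all genes, and above them for 0. Plau was near the floor and barely apart, with 1.49, 1.43 and 1.47 CPM in P16lo against 0, 0.484 and 1.33 CPM in P16hi libraries (edgeR adjusted p = 0.88).

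Among 8 tested co-receptors and other type I receptors the PDGFRα median was 0.52. Eng, which encodes the co-receptor endoglin of endothelial cells and fibroblasts, had 204, 116 and 287 CPM in P16lo libraries against 476, 601 and 683 CPM in P16hi PDGFRα libraries, without overlap (log2 fold change 1.54, SE 0.42, edgeR adjusted p = 0.447). Nrp2 (1.37) was the other of 2 in 8 that lay higher without overlap, against 7.82% of all genes. Endothelial markers summed to 1896 to 3281 CPM in those P16hi and 420 to 889 CPM in those P16lo libraries, and their part in the Eng value was not tested. In F480-high cells Eng was at 581 CPM in P16hi library 3 and at 5.93 to 56.2 CPM in the other 5. F480 P16hi library 3 also stood apart in endothelial, cardiomyocyte and pericyte markers. Of 20 Smads and regulators, Smad6, an inhibitory Smad, and Fkbp1a, which encodes the protein FKBP12 that holds Tgfbr1 inactive, had all PDGFRα P16hi libraries above all P16lo libraries (log2 fold changes 1.42 and 0.88). Skil, which encodes the Smad repressor SnoN, had all below (-1.21), as had Zfyve16 and Trim33 (-0.74 and -0.47). These are 2 of 20 higher and 3 of 20 lower without overlap, against 7.82% and 6.97% of all genes, and the edgeR adjusted p was 0.686 to 0.878 for the 5. The median of this list was -0.20, of 22 genes known to be induced by TGF-β -0.70, of 13 matrix proteins that hold or bind TGF-β -0.52, and of 14 other ligands and antagonists of the superfamily -0.51. The fibroblast markers lay the same way, with 10 of 10 below 0 and a median of -0.97, and P16lo library 3 stood apart. This likeness is partly fixed in advance, since the lists share genes. Col1a1, Col1a2, Col3a1 and Postn are also in the TGF-β-induced list, and Dcn and Lum among the matrix proteins. Col1a1, a collagen of the TGF-β-induced list, had 173, 674 and 4688 CPM in P16lo libraries and 1172, 272 and 1101 CPM in P16hi libraries. The part of the fibroblast markers in these medians was not tested. In F480-high cells the list medians ran from -1.19 for the TGF-β-induced genes to 0.63 for the co-receptors.

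Between populations the lists held 14 called genes among 91 tested, 9 higher and 5 lower in PDGFRα-high cells by edgeR, against 3.7% and 2.64% of all genes. Of 14 genes listed for the activation of latent TGF-β, 1 was higher and 3 were lower in PDGFRα-high cells. Plaur, the receptor of the protease urokinase, had 96.2, 105 and 32.1 CPM in PDGFRα P16lo, 45.8, 24.2 and 52.2 CPM in PDGFRα P16hi, 460, 433 and 248 CPM in F480 P16lo, and 395, 525 and 94.7 CPM in F480 P16hi libraries. All F480 libraries but P16hi library 3 lay above every PDGFRα library, and the log2 fold change was -2.67 (SE 0.46, edgeR adjusted p = 0.0228). Plau, urokinase itself, fell by 4.63 (edgeR adjusted p = 0.0318) and Thbs1 by 3.05 (edgeR adjusted p = 0.0372) on the log2 scale.

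Of 13 matrix proteins that hold or bind TGF-β, 3 were higher in PDGFRα-high cells and 0 lower, with a list median of 3.03 against 0.07 for all genes. They were the small proteoglycans of collagenous matrix Dcn (log2 fold change 4.39, edgeR adjusted p = 0.0306), Bgn (3.44, 0.0453) and Lum (3.78, 0.048), and Dcn and Lum are also among the 10 fibroblast markers. Dcn had 171 to 6150 CPM in the PDGFRα and 18.4 to 171 CPM in the F480 libraries, with the lowest PDGFRα library just above the highest F480 library. Of 22 genes known to be induced by TGF-β, 3 were higher and 0 lower, with a median of 2.99. Loxl2, an enzyme that cross-links collagen, had 12.03 to 188 CPM in the PDGFRα and 5.28 to 11.5 CPM in the F480 libraries (log2 fold change 2.96, edgeR adjusted p = 0.034). The other 2, Acta2 (3.19, 0.0387) and Tagln (2.74, 0.0428), encode contractile proteins that myofibroblasts share with smooth muscle. Pericyte and smooth muscle markers summed to 46.5 to 666 CPM in the PDGFRα and 3.74 to 254 CPM in the F480 libraries, and their part in these values was not tested.

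Of 20 Smads and regulators 0 were higher and 2 were lower, the repressors Tgif1 (log2 fold change -2.05, edgeR adjusted p = 0.0323) and Skil (-1.67, 0.0495). Fstl1 (3.60, 0.0396), a secreted follistatin-like protein, and Bmp6 (3.75, 0.0495), a BMP ligand, were higher among 14 other ligands and antagonists, and 0 of 8 co-receptors and type I receptors were called. No list gene was called without F480 P16lo library 1 or 2, where edgeR called 0 genes in all.

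For each of the 10 genes the most similar gene was found among 8960 or 8961 genes with a mean of at least 10 CPM, by Pearson's r of log2(CPM + 1) over 12 libraries, centred within each population. These libraries share their depth and cell makeup across genes, so the values describe likeness only. The nearest genes were Irf5 for Tgfb1 (r = 0.976), Lhfp for Tgfb2 (0.968) and Serpine2 for Tgfb3 (0.915). For the receptors they were Abcc3 for Tgfbr1 (0.968), Fam3a for Tgfbr2 (0.906) and Qsox1 for Tgfbr3 (0.961), with Adamts5 (0.945) and Pdgfra (0.939) next for Tgfbr3. Ltbp1 lay nearest Fhl1 (0.985), Ltbp2 nearest Adamtsl2 (0.941), Ltbp3 nearest Emilin1 (0.987), a matrix protein that binds the TGF-β precursor, and Tgfbi nearest Myh9 (0.954). Among the members themselves, Tgfb2 and Ltbp3 were most alike (0.893), followed by Tgfb2 and Tgfbr3 (0.829), and Tgfb1 and Ltbp1 were least alike (-0.770).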

How the data were processed

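RNA-seq values of 12 libraries in 4 groups of 3 were used. Per the labels' protocols, cDNA was cut and tagged by a transposase and sequenced as DNA nanoballs. The submitters' processing notes name HISAT and the builds GRCm38 and mm10. The HISAT version, how reads were counted and whether strand was used are not stated in these sources. Per the file headers, the authors deposited a table per sorted population with FPKM, TPM, estimated counts and scaled read counts (a signal that entered no test) for each gene and library. Between 13.0% and 19.2% of the estimated counts were not whole, and all were rounded. Each table is a pair of column blocks with their own gene order, which were joined by gene identifier, with a gene listed in 1 block set to 0 in the other. All 10 members are listed in both blocks of both tables. Of 17952 gene identifiers, 17900 (99.7%) matched RefSeq's GRCm38.p6 table, the source of positions and promoters.

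Counts were filtered with filterByExpr (minimum count 10), scaled by TMM and fitted with edgeR 4.0.16 (R 4.3.3, robust quasi-likelihood F-test), with 6 libraries per P16 comparison and 12 for the population comparison and for the difference of P16 differences. P-values were adjusted by Benjamini-Hochberg over all genes tested, with a threshold of 0.05. SE were taken from the F statistic. CPM use TMM factors over 12 libraries. Sums, shares and orders per length use TPM remade from the deposited FPKM, since the deposited TPM of F480 P16hi library 3 were within 5% of these for 6.07% of genes over 1 FPKM, against 100% in the other 11. DESeq2 1.42.0, limma 3.58.1 on log2(TPM + 1) and log2(TPM + 0.1), other scalings and filters, the replicate number or column block as a term, and leaving out libraries were the alternatives. TPM remade from FPKM and leaving out library 3 of both F480 groups were chosen after seeing the data. The edgeR steps were tested on simulated data in which all libraries had the same expected makeup apart from the changes set. These libraries differ in makeup, so that test covers the steps and not how well they suit these data. No 2 libraries of a group agreed within sampling noise. The members, lists and tests were chosen with earlier results of these data known. The members and sort genes are all named, and from each pathway list the 3 genes of smallest p in a comparison could be named. The 3 genes most like each member could be named too. The choice among the genes so allowed was made with their values known.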

Additional observations from a re-analysis of the deposited data

How the results depend on the processing

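In the P16 comparisons and their difference, 0 of the 10 genes passed the threshold under any alternative, and no population value changed sign. Of 877 member values under alternatives, 773 kept direction and side, 15 newly passed (all between populations) and 89 changed sign, 36 of these for PDGFRα-high cells, 24 for F480-high cells and 29 for the difference. The cause was not tested. Depth limits the low genes most: Tgfb2, Tgfbr3, Ltbp1 and Ltbp2 had under 100 counts in 6 to 10 of the 12 libraries.

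Counts of genes called moved as follows. In PDGFRα-high cells (0 by edgeR) they were 304 by DESeq2 (293 higher, 11 lower), 219 and 135 by limma on deposited TPM with a pseudocount of 1 and 0.1, 220 on TPM remade from FPKM, 39 with library totals, 23 with no filter, and 0 to 17 with 1 library left out (17 without P16hi 3). In F480-high cells DESeq2 called 3 and for the difference 8. Between populations (892 by edgeR) they were 3218 by DESeq2, 1782 and 1781 by limma on deposited TPM, 579 with a replicate block, 1594 with the F480 column block as a term, 3190 without library 3 of both F480 groups, and 0 to 2786 with 1 library left out. Counts were 0 without F480 P16lo 1 or 2, 7 without PDGFRα P16hi 2, 64 and 96 without F480 P16hi 1 and 2, 113 without PDGFRα P16lo 3, 144 without PDGFRα P16hi 3, 350 without PDGFRα P16lo 2 and 420 without PDGFRα P16hi 1. Members called were 4 by DESeq2, 2 and 2 by limma on deposited TPM but 0 on TPM remade from FPKM (769 genes), 1 with the replicate block, 1 with the column block (Tgfb1 in both), 3 without both F480 libraries 3 (Tgfb1, Ltbp1 and Tgfbi), and 0 to 2 with 1 library left out.

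Values of P16hi over P16lo in PDGFRα-high cells changed sign with library totals for Tgfb1 (0.170), Tgfbr2 (0.238), Tgfbr3 (0.117) and Ltbp3 (0.001). With limma on log2(deposited TPM + 1) they did so for Tgfb1 (0.727), Tgfb2 (0.499), Tgfb3 (0.444), Tgfbr2 (0.575), Tgfbr3 (0.538) and Ltbp3 (0.632). With a pseudocount of 0.1 the same 6 had 0.746, 0.889, 0.493, 0.607, 0.888 and 0.711, and on TPM remade from FPKM 0.727, 0.497, 0.446, 0.575, 0.539 and 0.632. With 1 library left out the ranges that crossed 0 were Tgfb1 -0.476 to 0.137, Tgfb2 -1.266 to 1.571, Tgfb3 -1.356 to 1.121, Tgfbr2 -0.512 to 0.162, Tgfbr3 -1.598 to 1.884, Ltbp1 -0.177 to 2.061 and Ltbp3 -1.146 to 1.193. The column block was not used as a term there. P16hi 1 has a block of its own, so such a term would only set that library aside.

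In F480-high cells signs changed with the column block as a term for Tgfb1 (0.094), Tgfbr1 (1.275), Ltbp2 (1.979) and Tgfbi (0.301), and without both libraries 3 for Tgfb1 (0.068) and Tgfb2 (-0.111). With limma on log2(deposited TPM + 1) they changed for Tgfb1 (0.030), Tgfbr1 (0.609) and Tgfbi (0.179), and with 0.1 for Tgfb1 (0.030), Tgfbr1 (0.691), Ltbp2 (0.047) and Tgfbi (0.182). On remade TPM Tgfbr1 had 0.356. Ranges with 1 library left out were Tgfb1 -0.347 to 0.262, Tgfb2 -0.154 to 1.052, Tgfbr1 -0.942 to 0.405, Tgfbr2 -0.321 to 0.569 and Ltbp3 -0.024 to 1.029.

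The difference of P16 differences changed sign with the column block for Tgfb1 (-0.177) and Tgfb3 (-0.411), without both F480 libraries 3 for Tgfb1 (-0.12) and Ltbp1 (0.251), and with library totals for Tgfbr2 (0.011). With limma on deposited TPM it did so for Tgfbr2 (0.339), Ltbp1 (0.556) and Ltbp3 (0.031) at a pseudocount of 1 and Tgfbr2 (0.367) and Ltbp1 (0.307) at 0.1. On remade TPM it did so for Tgfb2 (0.325), Tgfbr2 (0.371), Tgfbr3 (0.032) and Ltbp1 (0.480). Ranges with 1 library left out were Tgfb1 -0.336 to 0.295, Tgfb2 -1.745 to 1.249, Tgfb3 -0.495 to 2.019, Tgfbr2 -0.750 to 0.203, Tgfbr3 -3.443 to -0.001, Ltbp2 -3.215 to 0.986 and Ltbp3 -1.676 to 0.762. Between populations the values with 1 library left out that moved most were Tgfb2 1.628 to 3.159, Tgfb3 0.124 to 1.424, Tgfbr1 -1.714 to -0.632, Tgfbr2 -0.803 to -0.178, Tgfbr3 2.005 to 3.716, Ltbp1 1.747 to 3.472, Ltbp2 1.009 to 2.457 and Ltbp3 0.853 to 2.106.

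Whether the replicate numbers shared by the groups pair the samples is not stated, and 3 libraries per group cannot settle it. Deviations of same-numbered libraries correlated at 0.084, 0.030 and 0.273 in PDGFRα-high and 0.492, -0.329 and 0.14 in F480-high cells. Those of differently numbered libraries correlated at -0.318 to 0.231 in PDGFRα-high and -0.547 to 0.557 in F480-high cells. The block thus describes a shared number only. With the replicate block, values changed sign for Tgfb1 (0.019), Tgfb2 (0.233), Tgfbr3 (0.22) and Ltbp3 (0.024) in PDGFRα-high and Tgfbr1 (0.373) in F480-high cells.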

Other observations

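Among other superfamily ligands in F480-high cells, Bmp6 had 0.538, 0.652 and 0.325 CPM in P16lo libraries against 0.665, 0.871 and 35.9 CPM in the P16hi libraries. All P16hi libraries lay above all P16lo libraries, as for 2.95% of all genes, and the log2 fold change was 4.73 (SE 1.75, edgeR adjusted p = 0.999). P16hi library 3 is also the library with 4389 CPM of endothelial and 921 CPM of cardiomyocyte markers. Tgfb1i1, a focal adhesion protein known to be induced by TGF-β, had 2.78, 2.28 and 0.284 CPM in F480 P16lo libraries against 2.48, 2.45 and 50.2 CPM in the F480 P16hi libraries, with the same library apart (log2 fold change 3.48, SE 1.53, edgeR adjusted p = 0.999). Fstl3, which encodes an activin-binding follistatin-like protein, had 1.53, 1.51 and 4.51 CPM in F480 P16lo libraries and 0.532, 0.829 and 0 CPM in F480 P16hi libraries, with P16hi under P16lo throughout, as for 3.94% of all genes (log2 fold change -2.43, SE 1.41, edgeR adjusted p = 0.999). Mmp9, a protease that can release TGF-β from its latent form, had 89.3 CPM in PDGFRα P16lo library 2 and 0.292 to 6.49 CPM in the other 5 PDGFRα libraries (log2 fold change of P16hi over P16lo -2.86, SE 1.48, edgeR adjusted p = 0.823).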
